A study of Mus musculus with 9 samples.

Results

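Ndufab1 and Ndufa6 encode accessory subunits of complex I, the NADH dehydrogenase that feeds electrons into the mitochondrial respiratory chain. They were chosen by name, as subunits of the enzyme that metformin inhibits, and each was read by 1 probe designed on a RIKEN cDNA clone of its locus. They are 2 of 5396 genes with a named probe on the array and 2 of the 2705 whose named probe was detected well enough to be tested. Among 30 accessory subunits of complex I that were listed, these 2 had a named probe, and of 14 core subunits none had one. A clone of a locus need not match its main mRNA, so each value below is that of the probe.

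Livers came from male C57BL/6J mice aged 20 weeks, wild type in all groups. There were 3 groups of 3 pools, and tissue of 4 mice went into each pool, 36 mice in all. Chow was the control feed over 17 weeks, and the labels name no vehicle for that group. Over the same 17 weeks the high fat diet group was fed D12451, with 45% of calories from fat, and for the last 5 it was dosed into the stomach with saline. The metformin group had that feed too and was dosed the same way and for as long, with metformin at 3 mg/kg/day. A pool averages its mice, so its spread is narrower than that of single mice, and in whole liver a change in the cells present and a change in RNA per cell cannot be told apart. None of the 14 hepatocyte markers listed had a named probe, so the tissue label could not be set against its defining markers here. Of the markers listed for other liver cells, only Rgs5, a marker of stellate cells and pericytes, had a named probe (1 of 10 listed). Probes left without a name here may read other markers. Rgs5 was at 1.15 ± 0.36 in the controls, 1.51 ± 0.40 with high fat diet and 1.38 ± 0.24 with metformin (SD, n = 3 each), on the log2 scale used for all levels.

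Complex I pumps protons across the inner mitochondrial membrane as it passes electrons from NADH to ubiquinone, and in liver it supports the oxidation of fatty acids and the energy demand of glucose synthesis. Metformin accumulates in mitochondria and can slow this enzyme, an action debated as a source of its effect on glucose output. Ndufab1 is the mitochondrial acyl carrier protein: it holds growing acyl chains in mitochondrial fatty acid synthesis, the route to lipoic acid, and is also built into complex I. Ndufa6 belongs to the LYR-motif proteins, which bind the acyl carrier protein, and it anchors Ndufab1 to the matrix arm of the complex.

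The 250 bases before each gene's start are shown as background on both subunits of this enzyme. They were not tested against the levels in the pools. They come from RefSeq on GRCm38.p6, at chr7:122101849-122102098 for Ndufab1 and chr15:82354292-82354541 for Ndufa6, both on the minus strand and written 5′ to 3′ in the direction of the gene. Capitals mark the letters of any searched motif.
Ndufab1: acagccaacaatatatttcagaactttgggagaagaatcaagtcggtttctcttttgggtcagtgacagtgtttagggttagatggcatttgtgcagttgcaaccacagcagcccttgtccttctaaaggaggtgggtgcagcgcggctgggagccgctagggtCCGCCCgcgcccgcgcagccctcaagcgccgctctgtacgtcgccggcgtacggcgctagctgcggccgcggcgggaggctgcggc
Ndufa6: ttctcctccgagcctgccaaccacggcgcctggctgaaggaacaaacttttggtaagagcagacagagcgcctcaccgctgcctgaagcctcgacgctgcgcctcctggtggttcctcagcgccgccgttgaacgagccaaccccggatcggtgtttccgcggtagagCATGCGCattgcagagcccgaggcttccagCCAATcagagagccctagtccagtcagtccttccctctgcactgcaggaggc

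Both stretches are rich in CpG, with 22 CpG in Ndufab1 and 18 in Ndufa6 against a median of 6 over 32851 promoter windows of this length. Their GC content was 60.8% and 62.4% against a median of 52.4%. On both strands, 8 motifs were searched: CATGCGC (a core of NRF1, a regulator of respiratory genes), CCGGAAG (ETS and GABP), AAGATGG (YY1), CCAAT, the GC box GGGCGG, TCAAGGTCA (oestrogen-related receptors), TATAAA and TGACGTCA (CRE). No motif was matched in both genes. Ndufab1 held 1 GC box, starting 86 bases before the gene start, as 32.7% of all windows hold at least 1. Ndufa6 held 1 CATGCGC, 82 bases before the start, which 3.24% of all windows contain, and 1 CCAAT, 52 bases before it, which 33.8% contain. These are matches of letters in 1 window and show no binding.

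Both probes were measured well. Ndufab1 was printed as 2 spots per array and Ndufa6 as 1, and all 18 and all 9 of these spots were well above background, with no outlier mark and none saturated. The raw signal was 7.81 to 15.6 times the local background for Ndufab1 and 13.6 to 24.4 times for Ndufa6. The 2 spots of Ndufab1 differed by a median of 0.078 and at most 0.31 on the log2 scale, the largest gap being in metformin replicate 2, where the processed signals were 146 and 181 intensity units. From these pairs the technical SD of a single spot was 0.10. The spread between pools of a group was 0.17 for Ndufab1 and 0.24 for Ndufa6, against a median of 0.24 over all 62036 probes tested, and 77.5% of probes varied more within groups than Ndufab1. The probes were not matched for number of spots or signal. This rank therefore does not show that the Ndufab1 transcript is steadier than others.

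**Figure D1:**
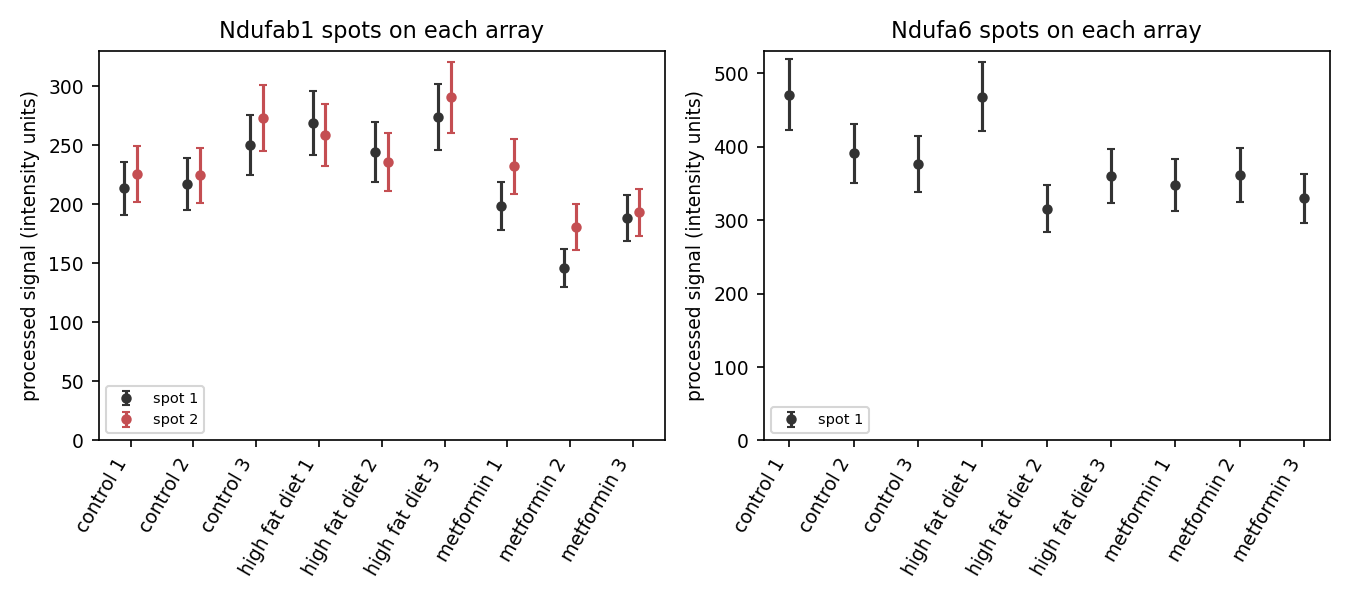
Processed signal of each spot on each array, in intensity units before scaling between arrays, for Ndufab1 (2 spots, left) and Ndufa6 (1 spot, right). Bars are the error that the extraction software gives for the spot, about 10.3% of the signal for Ndufab1 and 10.1% for Ndufa6. Ndufab1 spots lie between 146 and 291, and Ndufa6 spots between 316 and 471.

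Arrays differed in overall brightness, so each level is given as log2 of the processed signal less the 75th percentile of all probes on that array, where 0 means a signal equal to that percentile. The percentile itself was 236 to 242 intensity units in the controls, 217 to 258 with high fat diet and 177 to 215 with metformin. Slides, read from the file headers, were not balanced over the groups. Slide 1 carried all 3 controls and high fat diet replicate 1. Slide 2 carried high fat diet replicates 2 and 3 with metformin replicates 1 and 2, and slide 3 carried metformin replicate 3.

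Ndufab1, the acyl carrier protein, stood at -0.14, -0.09 and 0.12 in control replicates 1, 2 and 3. With high fat diet it stood at 0.28, 0.08 and 0.13, and with metformin at -0.0030, -0.33 and 0.11. High fat diet replicate 1 was the highest of the 9 pools and metformin replicate 2 the lowest, and the pools of every group overlapped those of the other groups. The group means were 0.16 ± 0.11 for high fat diet, -0.04 ± 0.14 for control and -0.07 ± 0.23 for metformin (SD, n = 3 each), in that order from the highest. Neighbours in this order did not differ beyond their spread. An exact permutation test over the 3 groups gave p = 0.261, with 37.2% of the variance of the 9 pools lying between groups. Without scaling between arrays, an alternative added after the data were seen, the same test gave exact p = 0.0143 and 70.1% between groups.

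Ndufa6, a partner that holds the acyl carrier protein in the matrix arm of the complex, stood at 0.96, 0.73 and 0.64 in control replicates 1, 2 and 3. With high fat diet it stood at 1.11, 0.47 and 0.48, and with metformin at 0.69, 0.83 and 0.90. The highest pool of all 9 and the 2 lowest were all high fat diet pools: replicate 1, on slide 1, was on top, and replicates 2 and 3, on slide 2, were at the bottom. The means were 0.81 ± 0.10 for metformin, 0.78 ± 0.16 for control and 0.69 ± 0.37 for high fat diet (SD, n = 3 each), and neighbours in this order did not differ beyond their spread. The exact permutation test over the 3 groups gave p = 0.814, with 6.39% of the variance between groups.

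**Figure D2:**
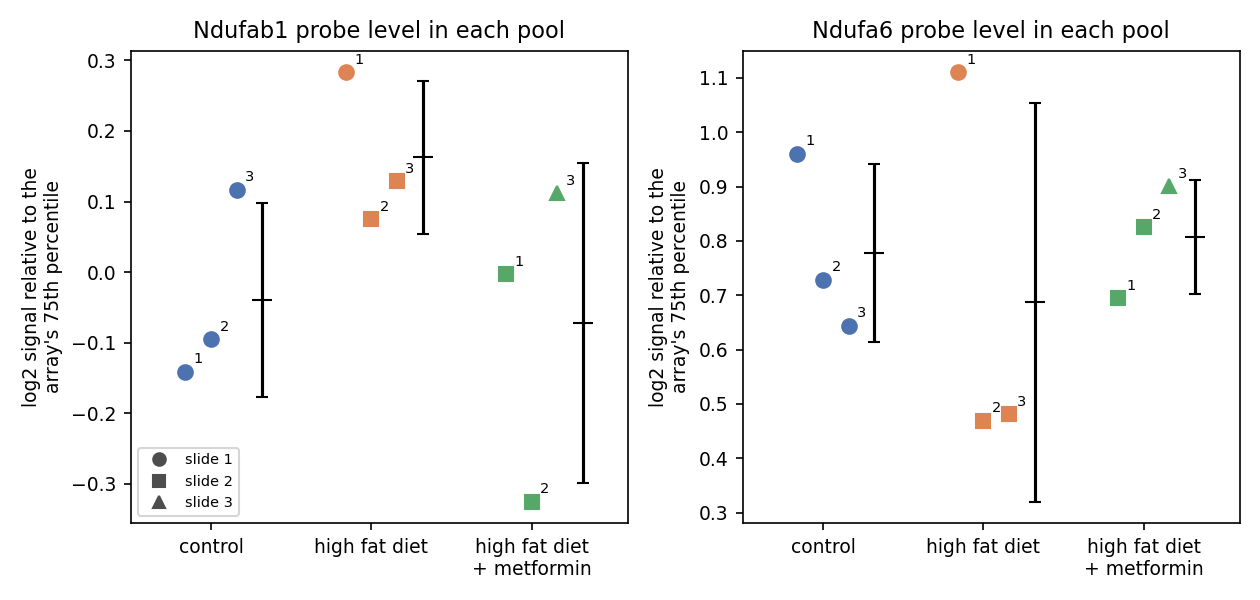
Level of the Ndufab1 probe (left) and the Ndufa6 probe (right) in each of the 9 pools, as log2 signal less the 75th percentile of its array. Numbers are replicates, shapes are slides, and the bar beside each group is its mean ± SD (n = 3). For Ndufa6 the high fat diet pool on slide 1 sits at 1.11, while those on slide 2 sit at 0.47 and 0.48.

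The first comparison asked what a high fat diet, given with saline, does to both transcripts. Neither passed the test across all probes (limma, Benjamini-Hochberg adjusted p under 0.05), and neither had groups that lay apart. In this comparison limma called 0.0451% of all tested probes, and 15.4% of them had groups that did not overlap. Ndufab1 was 1.15-fold of control, with a 95% interval from 0.902 to 1.47 (log2 difference 0.20, SE 0.16, adjusted p = 0.687). The difference was positive under all 22 alternative settings, from 0.14 to 0.32, and passed under none (limma adjusted p 0.503 to 1.00, lowest unadjusted p 0.109). Several settings cannot move it, among them the other filters, the replicate block and leaving out a metformin pool, which all returned 0.20. Ndufa6 was 0.939-fold of control, with an interval from 0.697 to 1.27 (log2 difference -0.09, SE 0.19, adjusted p = 0.923).

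On slide 1, where 1 high fat diet pool can be set against 3 controls, the high fat diet pool was higher by 0.32 for Ndufab1 and by 0.33 for Ndufa6. For Ndufa6 this is the opposite sign to the comparison of all pools. A fit with slide as a block takes its diet difference from slide 1 alone and so returns this same value, which rests on 1 high fat diet pool (SE 0.22, limma adjusted p = 1.00, range 0.508 to 1.00 over its 20 alternatives). Its sign also turned without control replicate 1 (0.00056), high fat diet replicate 2 (0.018) or high fat diet replicate 3 (0.012), and became more negative without high fat diet replicate 1 (-0.30, SE 0.16). The direction of Ndufa6 with diet was therefore not settled by these pools.

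The second comparison asked what metformin does when the feed is the same. Ndufab1 was 0.850-fold of the saline group, with an interval from 0.666 to 1.08 (log2 difference -0.23, SE 0.16, limma adjusted p = 0.841). Ndufa6 was 1.09-fold, with an interval from 0.806 to 1.46 (log2 difference 0.12, SE 0.19, adjusted p = 0.947). Limma called 0 of these 2 probes, while it called 0.00645% of all probes. At an unadjusted p under 0.05 it was again 0 of 2, beside 4122 of all 62036 probes. Both genes had overlapping groups, as opposed to the 16.2% of probes whose groups lay apart. For Ndufab1, metformin replicate 3 lay above high fat diet replicate 2. The same high fat diet pools enter the first comparison, and the 2 comparisons are not independent.

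Slide 2 held 2 high fat diet and 2 metformin pools. There both metformin pools had less Ndufab1 signal than both high fat diet pools (difference -0.27) and more Ndufa6 signal (difference 0.28). The share of all probes that lie apart in these 4 pools was not counted, so this order is no result about the 2 genes. The fit with slide as a block returns these same differences from these 4 pools, with a limma adjusted p of 1.00 for both genes (range over the alternatives 0.298 to 1.00 for Ndufab1 and 0.735 to 1.00 for Ndufa6). The Ndufab1 difference was negative under all 22 alternatives, though several of them, such as other filters or leaving out a control, cannot move it. It was smallest without metformin replicate 2, at -0.11, and -0.33 without metformin replicate 3. Spot 1 of Ndufab1 alone gave -0.33 and spot 2 alone -0.14. Leaving out high fat diet replicate 2 put the Ndufa6 difference at 0.011, leaving out replicate 3 at 0.017 and leaving out replicate 1 at 0.33.

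The Ndufab1 difference between metformin and high fat diet was larger without scaling between arrays. What array brightness contributes to it was not tested. Without scaling, all 3 metformin pools lay below all 3 high fat diet pools, at -0.47 with an interval from -0.85 to -0.10 (limma unadjusted p = 0.0180, adjusted p = 0.298). In those unscaled values 24.2% of all probes had every metformin pool lower, and the median of all tested probes was at -0.23. Relative to that median Ndufab1 was at -0.24 and Ndufa6 at 0.11. The same values hold in the scaled data by construction, since scaling takes 1 constant off each array, and they are no separate check.

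The third comparison set metformin on the high fat diet against chow, and so took diet, dosing and drug together. The estimates of both probes were close to control, with wide intervals and no slide shared by these groups. Ndufab1 was 0.978-fold, with an interval from 0.766 to 1.25 (log2 difference -0.03, SE 0.16, limma adjusted p = 0.933). Ndufa6 was 1.02-fold, with an interval from 0.757 to 1.38 (log2 difference 0.03, SE 0.19, adjusted p = 0.951). Limma called 0.546% of all probes here and neither of these 2, and groups lay apart for 24.9% of probes and for neither of these 2. Changes larger than that of Ndufab1 were seen for 91.9% of probes, and larger than that of Ndufa6 for 92.7%.

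No slide holds both controls and metformin pools. A fit with slide as a block links them only through the high fat diet pools, and there Ndufa6 was at 0.62 with an interval from -0.06 to 1.29 (limma unadjusted p = 0.0676, adjusted p = 1.00, range 0.389 to 1.00 over the alternatives). Ndufab1 was at 0.057 in that fit. Single pools turned the sign of these near-zero differences: Ndufab1 was at 0.046 without control replicate 3 and 0.094 without metformin replicate 2, and Ndufa6 at -0.038 without control replicate 3 and -0.018 without metformin replicate 3.

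**Figure D3:**
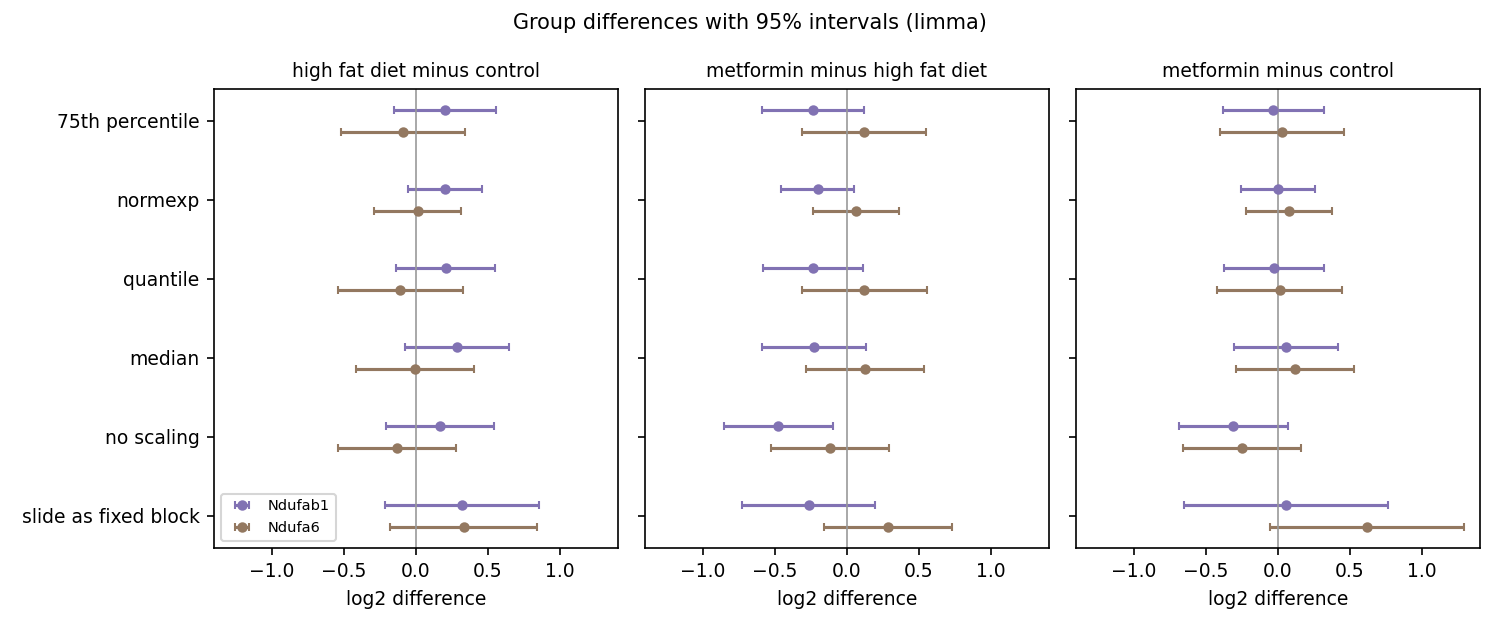
Log2 difference of Ndufab1 and Ndufa6 in the 3 comparisons with 95% intervals from limma, under 5 ways of scaling or background correction and with slide as a fixed block. Of these intervals, only that of Ndufab1 between metformin and high fat diet without scaling, -0.85 to -0.10, leaves out 0. The Ndufa6 difference with diet is -0.09 over all pools and 0.33 with slide as a block, which rests on the pools of slide 1.

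The difference of both probes on the same array cancels any constant taken off that array, such as its 75th percentile or median, but not a quantile normalization or background correction. It compares their changes, not their levels. Ndufab1 minus Ndufa6 was -1.10, -0.82 and -0.53 in control replicates 1, 2 and 3, -0.83, -0.39 and -0.35 with high fat diet, and -0.70, -1.15 and -0.79 with metformin. The 2 high fat diet pools of slide 2 were the highest of all 9 and metformin replicate 2 the lowest. Means were -0.82 ± 0.29 in the controls, -0.52 ± 0.26 with high fat diet and -0.88 ± 0.24 with metformin (SD, n = 3 each). High fat diet exceeded control by 0.29 (exact two-sided permutation p = 0.3), metformin was at -0.35 against high fat diet (exact p = 0.3) and at -0.06 against control (exact p = 0.8), where 3 pools against 3 cannot give less than 0.1. With normexp background correction high fat diet exceeded control by 0.19 (exact p = 0.4). Over the 3 groups together the exact permutation p was 0.289. Unequal change of both subunits was thus not shown beyond the spread between pools.

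**Figure D4:**
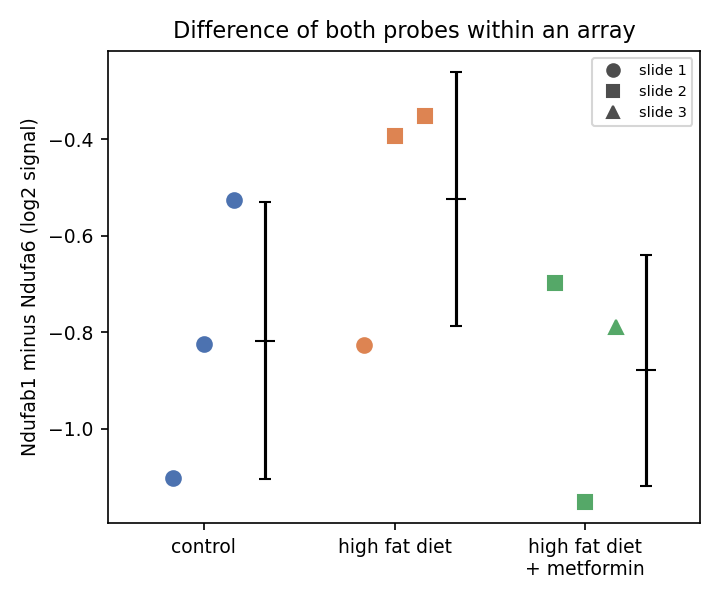
Ndufab1 minus Ndufa6 on the log2 scale within each array, by group, with shapes for slides and the mean ± SD (n = 3) beside each group. High fat diet pools on slide 2 lie at -0.39 and -0.35, and the one on slide 1 at -0.83, within the range of the controls.

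No correlation between the signals of both subunits was shown over the 9 pools, which are too few to exclude one. Pearson's r was -0.0081 (exact permutation p = 0.984) and Spearman's rho -0.12 (exact p = 0.776), a family of 1 pair of genes. Without metformin replicate 2 and control replicate 1, the pools farthest from the median of Ndufab1, r was 0.45, and after group means were removed it was 0.19. In the values without scaling between arrays, Pearson's r over all 9 pools was 0.24 (exact permutation p = 0.542). Among the 2704 other named genes tested, Ndufa6 ranked 1267 by likeness to Ndufab1.

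The named genes most like Ndufab1 across the 9 pools were the noncoding RNAs A930013F10Rik (r = 0.98, detected on 3 arrays), BC065397 (r = 0.87) and A430035B10Rik (r = 0.85). Those most unlike it were Gm36195 (r = -0.92), 4930455C13Rik (r = -0.87) and Gm32178 (r = -0.87). Most like Ndufa6 were Gm40002 (r = 0.93), Gm41133 (r = 0.89) and the transcription factor gene Tfcp2l1 (r = 0.88), and most unlike it were Snx11 (r = -0.91), Arhgap31 (r = -0.91) and Gm31183 (r = -0.86). These are extremes of 2704 correlations over 9 pools that share slides and scaling. Of the 2705 named genes tested, 470 are protein-coding, so most of the genes searched are not. Arhgap31 was detected on 5 arrays, Gm31183 on 4 and BC065397 on 8, and apart from A930013F10Rik the others on all 9. With group means removed, r was 0.97, 0.80 and 0.75 for the 3 most like Ndufab1 and -0.88, -0.98 and -0.85 for the 3 most unlike it. For Ndufa6 these values were 0.94, 0.89 and 0.93, and -0.95, -0.96 and -0.91. In all, 6 genes had r of at least 0.8 with Ndufab1 and 11 had r of -0.8 or below, and for Ndufa6 these counts were 13 and 7.

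Few other respiratory genes had a named probe, and probes left without a name here may read more of them. Of 19 complex I assembly factors listed, 2 had a named probe, as had 3 of 8 complex II genes, 1 of 16 complex III genes and 3 of 23 partners of the acyl carrier protein, Ndufa6 among them. Complex IV (29 listed), complex V (33), mitochondrial biogenesis (22) and metformin response genes (22) had 0. None of the 4 genes besides Ndufab1 and Ndufa6 that were tested passed limma in any of the 3 comparisons (adjusted p 0.458 to 0.962).

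Timmdc1, a membrane protein that helps build the membrane arm of complex I, was at 1.13 ± 0.08 in the controls, 1.18 ± 0.12 with high fat diet and 1.28 ± 0.16 with metformin (SD, n = 3 each). Acad9, an acyl-CoA dehydrogenase relative that acts in complex I assembly, was at 0.47 ± 0.24, 0.40 ± 0.14 and 0.53 ± 0.11 in the same order. Sdhaf3, a LYR-motif protein that helps mature the iron-sulphur subunit of complex II, was at 0.02 ± 0.26, 0.20 ± 0.18 and 0.28 ± 0.20. Lyrm7, a LYR-motif chaperone of the iron-sulphur subunit of complex III, was at -2.07 ± 0.30, -2.14 ± 0.29 and -2.35 ± 0.13 by 1 clone probe. All 4 genes had overlapping groups in all 3 comparisons, where 15.4%, 16.2% and 24.9% of all probes had groups that lay apart. Between metformin and high fat diet these 4 genes had a median difference of 0.09, with 3 positive and 1 negative, beside a median of 0.0069 over all probes. Between high fat diet and control their median was -0.0099, with 2 positive and 2 negative, beside -0.01 over all probes, and between metformin and control it was 0.10, with 3 positive and 1 negative, beside -0.0052.

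The other clone probe of Lyrm7 was well above background on 0 of 9 arrays. So was the clone probe of Sdha, which encodes the catalytic subunit of complex II, and that of the complex II assembly factor Sdhaf4 was above background on 2. A clone probe in this family can therefore stay dark in liver while another of the same gene is lit. Whether the Ndufab1 and Ndufa6 probes read the main mRNA was not tested, and neither gene has a further named probe.

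**Figure D5:**
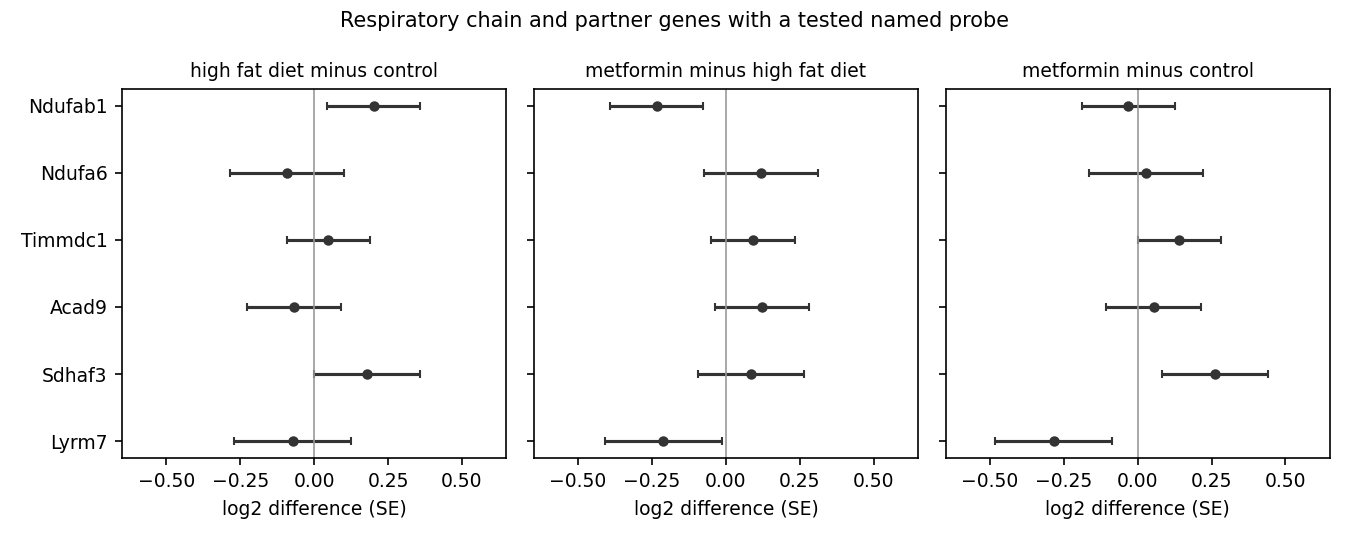
Log2 differences (points) with the standard error of the limma fit (bars) for Ndufab1, Ndufa6 and the 4 other respiratory chain or partner genes with a tested named probe, in the 3 comparisons. All differences lie between -0.28 and 0.26, and none passed the test.

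Around the genes themselves no further transcript could be followed by a named probe. RefSeq places 4 genes within 50 kb of Ndufab1 (Ears2, Ubfd1, Palb2 and Dctn5) and 9 within 50 kb of Ndufa6, among them Smdt1, a subunit of the mitochondrial calcium uniporter, and the cytochrome P450 genes Cyp2d22, Cyp2d11 and Cyp2d10. None of these 13 had a named probe.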

How the data were processed

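RNA of 9 liver pools was Cy3-labelled and hybridised to 1 single-colour Agilent array each. Per the file headers, the authors used version 11.5.1.1 of Agilent's Feature Extraction (10.7 per the submitters' processing notes); the deposited processed signal is an intensity, background-subtracted and detrended within the array. The deposited series table holds log2 values that equalled this signal less 1 constant per array (within 0.01 for 100% of probes), with column medians of -2.39 to -2.16.

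Outlier spots were dropped (73 to 192 of 175906 per array), log2 processed signals were averaged per probe (97836 probes) and the 75th percentile of the array was taken off. A probe was tested when at least 0.5 of its spots were well above background on at least 3 of 9 arrays (62036 probes, after 55 with a missing value were left out). Between 53.0% and 63.5% of spots per array passed that background test, and the number of arrays limits precision. Names came from RefSeq accessions and RIKEN clone identifiers matched to RefSeq's gene table of GRCm38.p6 (422 of 440 accession probes, 4234 of 12577 GI probes, 1209 of 15675 clone probes); Agilent's own 39027 probes are unnamed here. The header's build is mm9, so no coordinates of measured features are given.

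Groups were compared with limma 3.58.1 (R 4.3.3) over all 9 arrays, 1 mean per group, 6 residual and 3.75 prior degrees of freedom, with Benjamini-Hochberg adjustment over all tested probes and 95% intervals. Exact permutation tests used Python 3.11.15. The fit was tested on simulated data with independent noise and no slide effect, so that test does not cover the imbalance of slides. Pools are separate samples per the labels, and the main p-values set differences against the spread between them. Limma estimates that spread partly from all probes. Neither the main fit nor the exact tests take account of slide, so slide differences are mixed into groups and spread. The rule for other named genes took list members with a tested probe, genes within 50 kb, and the 3 genes most and least correlated with each subunit; the brightest probe stood for a gene with several. Cell type lists without any named probe were those of macrophages (9 genes), endothelium (9), cholangiocytes (6) and blood cells (8). The 2 subunits and all lists were chosen with earlier results of these data known. Normexp used median spot signals, since the files give no mean signal. Alternatives were other scalings, background correction, filters, slide or replicate number as a block, and leaving out each pool.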

Additional observations from a re-analysis of the deposited data

How the results depend on the processing

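Neither subunit passed limma in any comparison under any alternative run (22 per comparison for Ndufab1, 20 for Ndufa6). Signs that turned were those of Ndufa6 with diet under normexp (0.012) and slide as a fixed block (0.33), of Ndufa6 between metformin and high fat diet without scaling (-0.12), of Ndufa6 between metformin and control without scaling (-0.25) and with slide as a random block (-0.11), and of Ndufab1 between metformin and control with the median as scale (0.055), with slide as a fixed block (0.057) and by its spot 2 alone (0.021). The cause was not tested. Without scaling, the exact permutation p of Ndufab1 over the 3 groups was 0.0143.

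Leaving out 1 pool gave, between high fat diet and control, 0.14 to 0.28 for Ndufab1, -0.30 to 0.018 for Ndufa6 and 0.15 to 0.44 for their within-array difference. Between metformin and high fat diet it gave -0.33 to -0.11, 0.011 to 0.33 and -0.51 to -0.22, and between metformin and control -0.12 to 0.094, -0.038 to 0.12 and -0.20 to 0.083. The exact p over 3 groups ran from 0.146 to 0.571 for Ndufab1 and from 0.107 to 0.993 for Ndufa6.

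Counts of called probes were 28 (8 higher, 20 lower), 4 (3 higher, 1 lower) and 339 (147 higher, 192 lower) in the 3 comparisons, and 0 to 296, 0 to 4 and 2 to 2711 without 1 pool (limma; 5721 to 8867, 2839 to 6587 and 8450 to 15542 at an unadjusted p under 0.05). They were 64 (27 higher, 37 lower), 7 and 594 with normexp, 12, 2 and 96 with no filter, and 2, 0 and 0 with slide as a fixed block (2985, 2621 and 2644 at an unadjusted p under 0.05). With slide as a random block, whose estimated correlation was -0.17, they were 202, 4 and 8243. A negative value treats pools on 1 slide as less alike than pools on different slides. Results of this fit are therefore not read as corrected for slide. The count was 638 between metformin and control with probes above background on all 9 arrays, and 602 with only those groups in the fit, which called 0 between metformin and high fat diet (5884 at an unadjusted p under 0.05). With the median as scale it was 2 between metformin and high fat diet and 379 (205 higher, 174 lower) between metformin and control, and without scaling 2 and 4563 (130 higher, 4433 lower), where the median of all probes was at -0.28.

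Same-numbered pools deviated together little (r = -0.094 to 0.13), beside -0.14 to 0.10 for pools with different numbers. Whether same-numbered pools share more than a number was not tested. With the replicate block limma called 0, 0 and 79 probes (7932, 4223 and 11855 at an unadjusted p under 0.05), and the differences of Ndufab1 were 0.20, -0.23 and -0.03 and those of Ndufa6 -0.09, 0.12 and 0.03, with no call changed for either gene.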
